A study of Mus musculus with 14 samples.

Results

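The genes described here are 8 of the 56923 genes in a count table of mouse 2-cell embryos: the methionine cycle genes Mat2a, Mat2b, Ahcy and Mtr, and the folate cycle genes Mthfd1, Mthfd2, Shmt1 and Shmt2, each matched by its exact symbol to 1 row. The table held 14 RNA-seq libraries of 7 conditions with 2 libraries each, every library made from 5 embryos of ICR mice. Early 2-cell embryos were taken 30 h after hCG (the hormone injection that triggers ovulation) and late 2-cell embryos at 54 h. In G&N, embryos grew in mKSOM medium, which holds 10 mM lactate, with 5 µM Gne140, an inhibitor of lactate dehydrogenase, and 50 µM nicotinamide mononucleotide (NMN), an NAD+ precursor. G&N-L was the same mixture without lactate, so both of these groups carried the inhibitor. By the paper's description, lactate was removed at the same hour for both stages, in the late zygote. Late embryos had thus been without it for longer than early ones, and stage and time without lactate cannot be told apart. G&N-L + Lac-CoA embryos were G&N-L embryos injected as zygotes with lactyl-CoA, the donor of lactyl groups. H3K18R embryos were injected with mRNA of histone H3 whose lysine 18 was replaced by arginine, and WT embryos are described as injected with mRNA of unchanged H3. The treatment labels of the early libraries differ from their titles, naming Gne140 alone where the title says G&N, and Gne140 with NMN where it says G&N-L. The titles were followed. The columns of H3K18R are headed K18A. Nothing in the labels says that a pair of libraries came from separate days or females, so p-values measure the spread between these libraries, which may be technical.

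The methionine cycle makes S-adenosylmethionine (SAM), the methyl donor of histone, DNA and RNA methyltransferases. Mat2a encodes the catalytic subunit of the SAM synthetase found outside the adult liver, and Mat2b its regulatory partner. Ahcy clears S-adenosylhomocysteine, the product left after each methyl transfer, and Mtr returns homocysteine to methionine with a methyl group from folate. The folate cycle supplies that group. Shmt1 in the cytosol and Shmt2 in mitochondria take a carbon from serine, while Mthfd1 in the cytosol and Mthfd2 in mitochondria interconvert the folates that carry it. On mm39, Mat2a lies at chr6:72409779-72416684 and Mat2b at chr11:40570130-40586036, and Shmt1 at chr11:60661185-60708167 and Shmt2 at chr10:127352266-127358323, all on the minus strand.

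Mat2a has a further level of control that is written in its mRNA. The methyltransferase METTL16 binds hairpins in the 3′ untranslated region (UTR) and links splicing and stability of the transcript to the supply of SAM. The annotated 3′ UTR of Mat2a, 1494 bases long, held 6 matches to the METTL16 target letters, 5 of TACAGAGAA and 1 of TACAGAAAA, searched on the transcript's strand. They are printed because they set Mat2a apart from the other genes by sequence. At least 1 such match was present in 5.1% of 20790 3′ UTRs, and no other 3′ UTR held as many. The search was aimed at the Mat2a sites, so this count is a description and not a test. The windows below run 5′ to 3′ on the minus strand of chromosome 6 (GRCm39, the same assembly as mm39), with the matched letters, to which the coordinates refer, in capitals.
Mat2a site 1, chr6:72411228-72411236: gcgtaggtTACAGAGAAgccttcaa
Mat2a site 2, chr6:72410444-72410452: ttgtgataTACAGAGAAgtcacagg
Mat2a site 3, chr6:72410265-72410273: ggtgtagcTACAGAGAAaccagctt
Mat2a site 4, chr6:72410150-72410158: ggcgtaagTACAGAGAAgccatcac
Mat2a site 5, chr6:72410039-72410047: aggtgtccTACAGAAAAaccttggg
Mat2a site 6, chr6:72409931-72409939: tggtgtggTACAGAGAAgccagctt

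**Figure D1:**
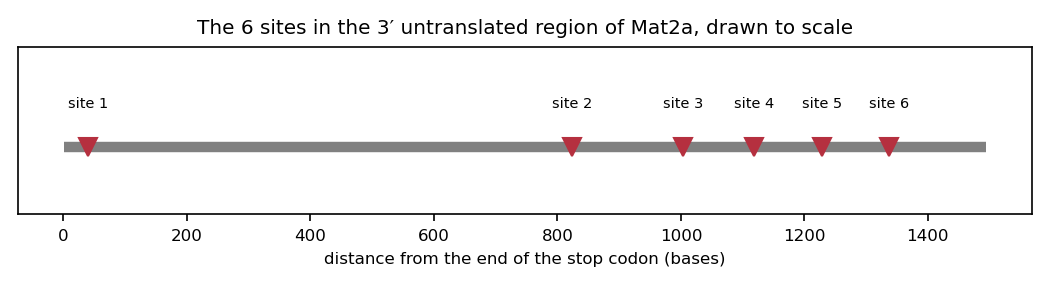
Positions of the 6 matches along the 1494 bases of the Mat2a 3′ UTR, in bases from the end of the stop codon (triangles, numbered as in the text). Site 1 starts at base 40, and the other 5 lie between bases 824 and 1345.

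The 250 bases before the annotated start of each gene's canonical transcript were searched on both strands for 4 promoter motifs. The CCAAT box (CCAAT) was found in 7 of the 8 genes and in 36.5% of 21631 promoters of the same length. In Mat2a it lay 8 to 4 bases before this start, which is inside the gene coordinates given above. The stretches searched for Mthfd2 and Shmt1 also lay inside the annotated genes. The NRF1 motif was found in Shmt2 alone among the 8 and in 3.7% of promoters. The E-box (CACGTG, 6.3% of promoters) and the composite site of ATF4 and C/EBP (TGATGNAA, 3.4%) were found in none of the 8. Such a match is a description of letters and not a binding site.

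Library totals ran from 20350427 to 61275465 counts, so that a count of 0 in a library allows at most 0.049 to 0.147 counts per 1000000 (CPM), a limit that covers counting error only. Levels below are CPM on library sizes normalized together by TMM over all 14 libraries, given for the first and the second library of a group. Marker genes followed the stages in the labels: the summed level of 13 transcripts typical of 2-cell embryos was 208 to 351 CPM in early and 2121 to 3394 CPM in late libraries, and that of 16 oocyte and maternal genes was 39738 to 49504 CPM in early and 15959 to 27567 CPM in late libraries. The summed level of 13 cumulus and granulosa cell markers was 4.36 to 37.7 CPM, with 5 to 10 of them at 0 in both libraries of a group.

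Of the 8 genes, Mat2b had the highest counted level and Ahcy the lowest. The level of Ahcy may be too low, because near-identical copies may take its reads or lead to their being discarded, as described below. Per kilobase of the canonical transcript, the scale on which genes can be compared, the mean level of Mat2b was 364 to 1664 CPM per kilobase over the 7 conditions. Mthfd2 followed with 44.4 to 94.5 CPM per kilobase and Mat2a with 4.91 to 55.0. The Mat2a transcript was therefore at a small part of the level of the Mat2b transcript. Their ratio in reads per base, taken within each library, was 0.00643 to 0.0310 in the 5 conditions with Gne140. It was 0.0479 to 0.153 in H3K18R and WT. Protein was not measured. Shmt1 reached 3.62 to 30.1 CPM per kilobase, Shmt2 2.54 to 19.7, Mtr 3.99 to 6.42 and Mthfd1 0.586 to 2.62. Mitochondrial Mthfd2 exceeded cytosolic Mthfd1 in every library, by 29.4 to 187 times in reads per base. Ahcy stayed at or under 0.466 CPM per kilobase. In all, 117 of the 168 pairs of conditions, counted gene by gene, had libraries that did not overlap, or 69.6%, beside 47.9% over the 25041 genes that passed the filter in all 14 libraries together.

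**Figure D2:**
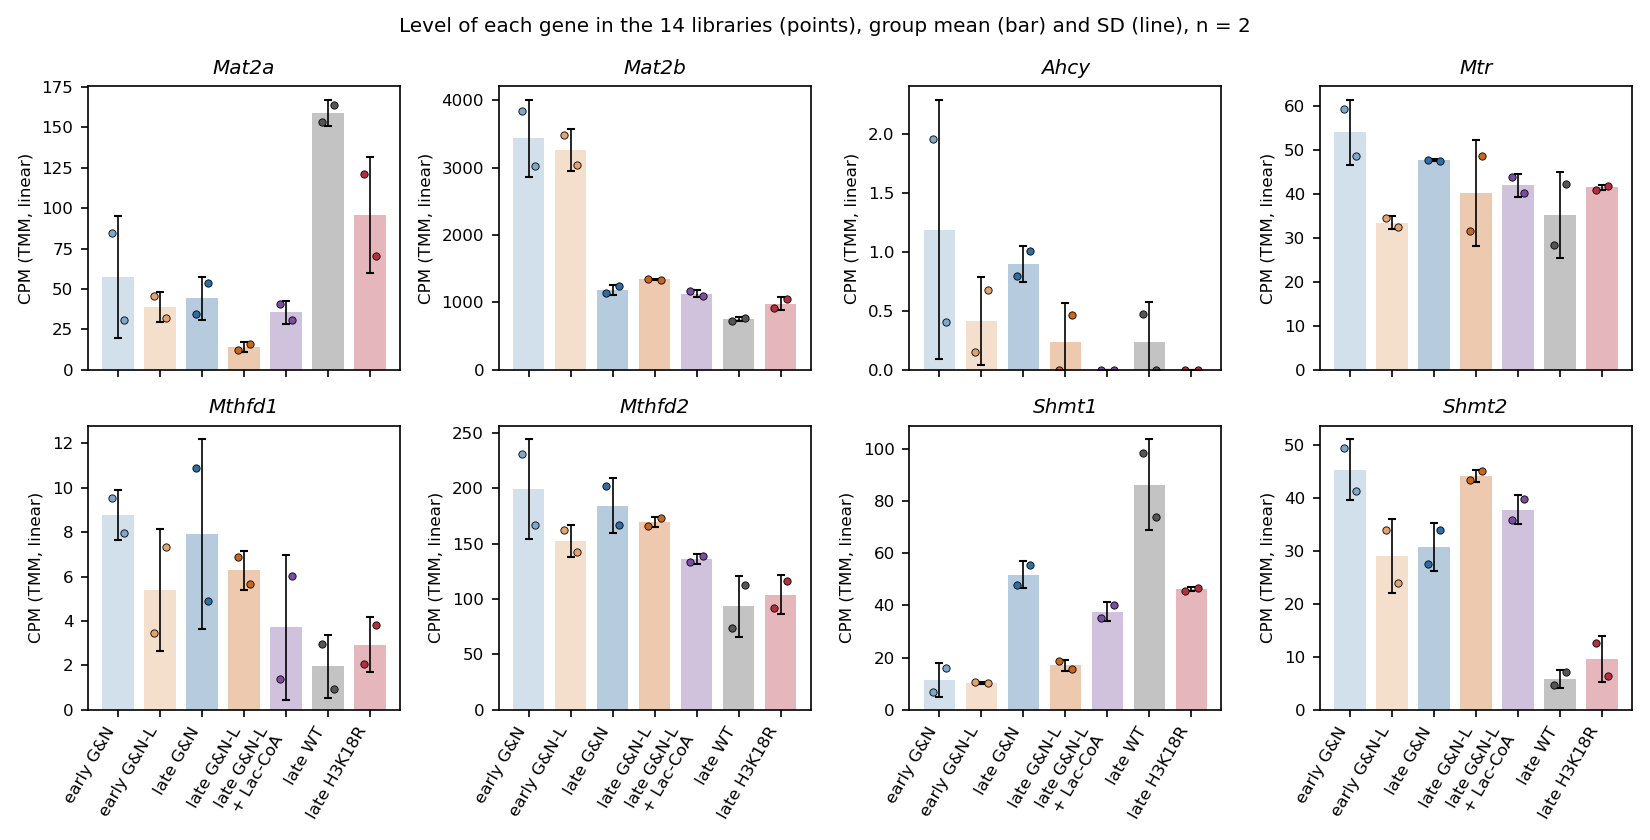
Level of each of the 8 genes (y axis, CPM on TMM-normalized library sizes, linear, separate scale for each gene) in the 7 conditions. Points are libraries, bars group means and lines the SD (n = 2). Mat2a is lowest in late G&N-L, and Mat2b is at 3023 CPM or more in every early library. Shmt1 has group means of 10.4 and 11.5 CPM early (libraries from 6.93 to 16.0 CPM) and of 51.8 CPM in late G&N.

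The comparison of late G&N-L with late G&N asked what the loss of lactate did at the stage of major zygotic genome activation (ZGA), the main onset of transcription from the embryo's own genome. Mat2a was at 34.8 and 53.8 CPM in late G&N and at 12.1 and 16.2 CPM in late G&N-L. Both libraries without lactate were below both with it. Shmt1, the cytosolic serine hydroxymethyltransferase, was at 48.0 and 55.5 CPM in G&N and at 18.7 and 15.6 CPM in G&N-L, again with no overlap. Shmt2, its mitochondrial counterpart, had the opposite order, with 27.5 and 33.9 CPM in G&N and 43.4 and 45.0 CPM in G&N-L.

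Each comparison was tested by edgeR's quasi-likelihood test on its own 4 libraries, with Benjamini-Hochberg adjustment over all genes tested. In late G&N-L against G&N the log2 fold change of Mat2a was -1.59 (SE 0.364, adjusted p = 0.316 by edgeR). That of Shmt1 was -1.55 (SE 0.297, adjusted p = 0.311 by edgeR). Neither passed the adjusted threshold of 0.05, and no gene of the 19481 tested did: 0% of genes and 0 of the 8 were called. At an unadjusted p under 0.05, 2 of the 8 (Mat2a and Shmt1, both lower) stood beside 12.0% of all genes, 7.65% being lower. The call rested on the tool and on the filter on low counts. Without a filter edgeR gave adjusted p = 0.0497 for Shmt1 and called 1.10% of all genes. DESeq2's test, which called 4.79% of genes, gave adjusted p = 0.0126 for Mat2a and 0.00264 for Shmt1, with log2 fold changes of -1.54 and -1.49. The libraries of 5 of the 8 genes did not overlap between the groups, against 43.5% of all genes.

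Ahcy had few counts and a wide error (log2 fold change -1.89, SE 2.23, adjusted p = 0.885 by edgeR). Mat2b was at 1139 and 1240 CPM in late G&N and at 1349 and 1335 CPM in late G&N-L, a log2 fold change of 0.22 (SE 0.151, adjusted p = 0.708 by edgeR). Mthfd2 differed by -0.08 (SE 0.217), Mtr by -0.20 (SE 0.312) and Mthfd1 by -0.30 (SE 0.641) on the log2 scale, and their libraries overlapped. For Shmt2 the log2 fold change was 0.58 (SE 0.276, adjusted p = 0.525 by edgeR). Over the 8 genes 6 log2 fold changes were below 0, with a median of -0.25, beside -0.02 over all genes. The summed level of the 16 oocyte and maternal genes was 23945 to 27567 CPM in these G&N-L libraries and 21181 to 22753 CPM in G&N. Its part in these differences was not tested. In bulk libraries, less RNA in each embryo and fewer embryos holding a transcript cannot be told apart.

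The Lac-CoA libraries were set against those of embryos without lactate. The paper describes injection for the Lac-CoA embryos and not for G&N-L or G&N. In comparisons with these groups, injection and lactyl-CoA cannot be told apart. Mat2a was at 40.6 and 30.6 CPM with Lac-CoA, above both G&N-L libraries and overlapping with G&N. Shmt1 was at 35.1 and 40.1 CPM, above both G&N-L libraries and below both G&N libraries. Against G&N-L, the log2 fold change was 1.29 for Mat2a (SE 0.360, adjusted p = 0.304 by edgeR). For Shmt1 it was 1.08 (SE 0.310, adjusted p = 0.305 by edgeR). By DESeq2 the adjusted p was 0.0505 and 0.0738. So 0 of 7 genes tested were called by edgeR (0% of all genes) and 0 by DESeq2 (6.20%), and 2 of 7 had an unadjusted p under 0.05 beside 13.3% of all genes. The libraries of 5 of the 7 did not overlap, against 46.8% of all genes.

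Other genes of the cycle were lower with Lac-CoA than without it. Mat2b stood at 1171 and 1094 CPM (log2 fold change -0.29, SE 0.142) and Mthfd2 at 133 and 139 CPM (-0.37, SE 0.176), in both cases below both G&N-L libraries. Shmt2, at 35.9 and 39.7 CPM, was also below them (-0.27, SE 0.250). None of the 3 had an unadjusted p under 0.05. Mtr, at 43.9 and 40.2 CPM, lay within the range of G&N-L (0.02, SE 0.313), and Mthfd1 overlapped with it at 1.40 and 6.02 CPM (-0.82, SE 0.892). The summed level of the maternal list was 16692 to 19807 CPM in the Lac-CoA libraries, under that of G&N-L. That of the 2-cell list was 3359 to 3394 CPM with Lac-CoA, above the 2281 to 2761 CPM of G&N-L and the 2227 to 2581 CPM of G&N. The part of either list in these differences was not tested. This comparison and the previous one share the G&N-L libraries, so that a low G&N-L library would move Mat2a in opposite directions in both.

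Set directly against late G&N, the Lac-CoA libraries showed no called gene among the 8, nor any among all genes tested (0%), by edgeR. DESeq2 also called 0 of the 8, beside 2.43% of all genes. The log2 fold change was -0.22 for Mat2a (SE 0.347, adjusted p = 1 by edgeR) and -0.37 for Shmt1 (SE 0.280, adjusted p = 0.904 by edgeR). For the others it was 0.02 for Mat2b (SE 0.180), -0.09 for Mtr (SE 0.275), -1.02 for Mthfd1 (SE 0.930), -0.35 for Mthfd2 (SE 0.236) and 0.40 for Shmt2 (SE 0.303). With these errors a moderate difference in either direction was not detectable. The 1 gene of the 8 with an unadjusted p under 0.05 was Ahcy, beside 8.51% of all genes.

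**Figure D3:**
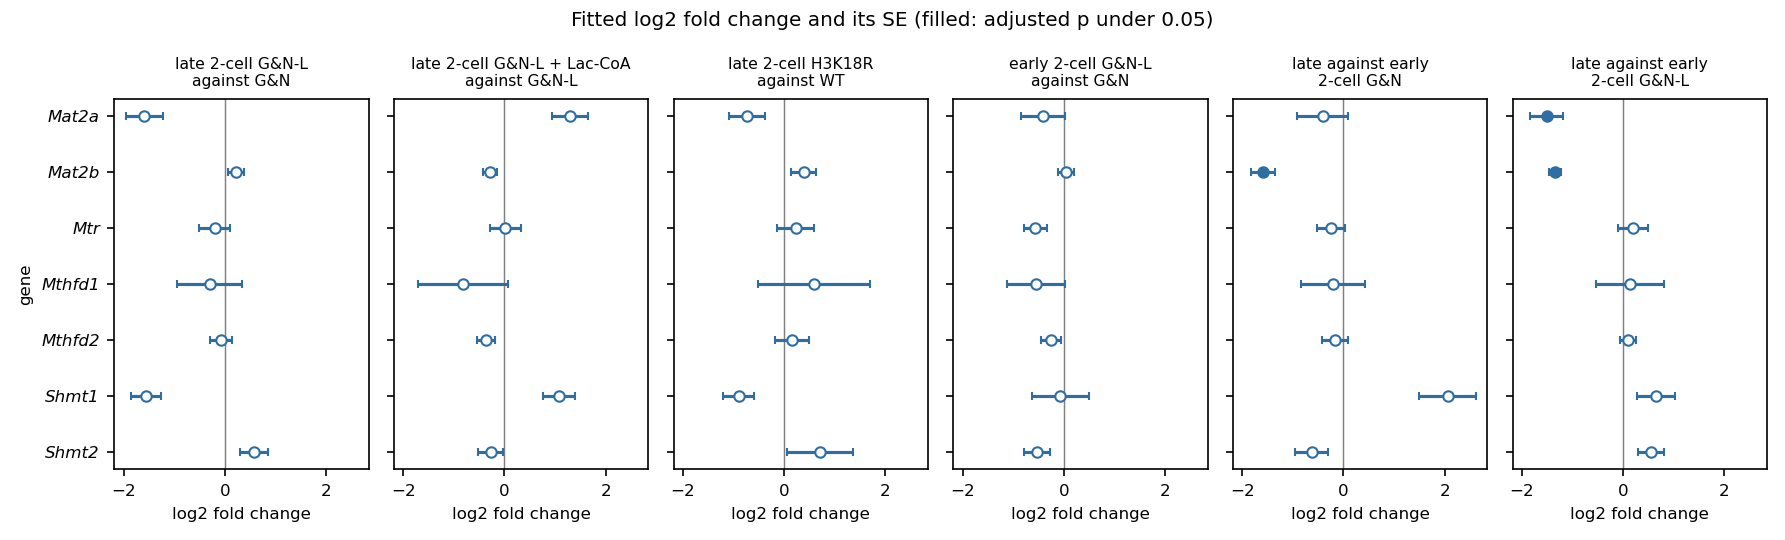
Log2 fold change (x axis) of 7 genes (Ahcy, with libraries at 0, is left out) in 6 comparisons, first group minus second. Points are edgeR estimates from 2 against 2 libraries, lines their SE, and filled points have an adjusted p under 0.05. Filled points are Mat2b in both stage comparisons and Mat2a in late against early G&N-L, and Mat2a and Shmt1 lie left of 0 without lactate and right of 0 with Lac-CoA.

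The comparison of H3K18R with WT addressed the lysine itself. Mat2a was at 153 and 164 CPM in WT and at 121 and 70.4 CPM in H3K18R, and Shmt1 at 98.5 and 73.9 CPM in WT and at 45.7 and 46.8 CPM in H3K18R. Both genes were lower in both H3K18R libraries. The log2 fold change was -0.90 for Shmt1 (SE 0.308, adjusted p = 0.734 by edgeR) and -0.73 for Mat2a (SE 0.350, adjusted p = 0.83 by edgeR). Among the 7 genes tested 0 were called by edgeR, beside 0.00565% of all genes, and 0 by DESeq2, beside 0.678%, and 1 had an unadjusted p under 0.05, beside 6.44%. Libraries did not overlap for 3 of the 7 (39.0% of all genes), the third being Mat2b, higher in H3K18R at 916 and 1051 CPM than in WT at 730.1 and 769.7 CPM (log2 fold change 0.39, SE 0.246). Mtr differed by 0.23 (SE 0.362), Mthfd1 by 0.59 (SE 1.11) and Mthfd2 by 0.16 (SE 0.336), with overlapping libraries. H3c1, a gene of histone H3.1, had 43643 and 83390 counts in H3K18R and 4 and 3 counts in WT, so that at this gene no injected H3 was seen in WT. Injection and mutation cannot be told apart here.

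Shmt2 had its lowest levels in these conditions. It was at 4.61 and 7.06 CPM in WT and 12.6 and 6.45 CPM in H3K18R, which overlapped (log2 fold change 0.71, SE 0.661), and at 24.0 CPM or more in each of the 10 other libraries. Mat2a in contrast was at 70.4 CPM or more in the libraries of WT and H3K18R, and at 53.8 CPM or less in the late libraries with Gne140. No test was made between these 2 conditions and the others, because the injected mRNA, the medium and any difference in handling cannot be told apart.

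The transcripts of the cytosolic and mitochondrial serine hydroxymethyltransferases can be compared within each library without scaling by library size. The ratio of Shmt1 to Shmt2 in reads per base was 1.40 and 1.31 in late G&N, and 0.345 and 0.278 in late G&N-L. Lengths were those of the canonical transcripts, 2863 bases for Shmt1 and 2297 for Shmt2. All annotated exons cover 6477 and 4108 bases, and with these lengths every ratio would be smaller. How far a ratio lies from 1 thus depends on the length used. With Lac-CoA it was 0.784 and 0.810, between the 2 groups and overlapping with neither. In H3K18R it was 2.91 and 5.83, under the 17.1 and 8.39 of WT. Early libraries had 0.113 and 0.311 in G&N and 0.251 and 0.338 in G&N-L, and these overlapped. These ratios restate the levels above on another scale and were not tested: with 2 against 2 libraries an exact permutation test cannot give a two-sided p below 0.333.

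**Figure D4:**
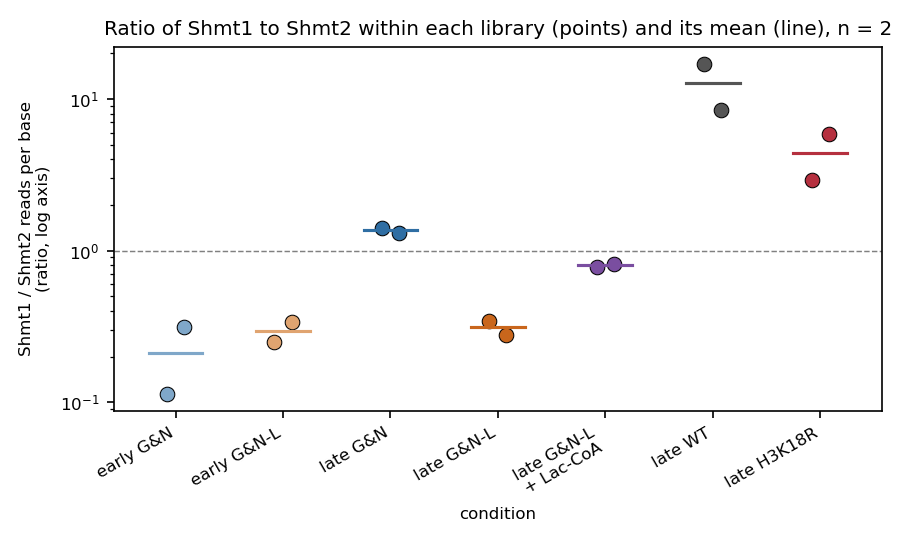
Ratio of Shmt1 to Shmt2 reads per base (y axis, log scale) in each library of the 7 conditions. Points are libraries, short lines group means (n = 2), and the dashed line marks a ratio of 1 with the lengths of the canonical transcripts. Late G&N lies at 1.31 and 1.40, late G&N-L at 0.278 and 0.345, and the Lac-CoA libraries between them.

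At the early 2-cell stage, when only minor ZGA has begun, removal of lactate gave no call by edgeR among the 8 genes or among all 17343 tested (0%), and by DESeq2 0 of the 8 (0.219% of all genes). By edgeR 0 of the 8 had an unadjusted p under 0.05, beside 4.52% of all genes. Mat2a was at 84.4 and 30.9 CPM in early G&N, a wider spread than between the groups, and at 45.5 and 32.3 CPM in early G&N-L. Its log2 fold change was -0.41 (SE 0.443, adjusted p = 1 by edgeR), and without 1 of the 4 libraries it was between -0.90 and 0.34. Shmt1 was at 6.93 and 16.0 CPM in G&N and at 10.6 and 10.1 CPM in G&N-L (log2 fold change -0.07, SE 0.562), and Mat2b differed by 0.05 (SE 0.157) and Ahcy by -1.29 (SE 1.61). The libraries of 4 of the 8 genes did not overlap, all 4 lower without lactate, beside 32.7% of all genes (21.3% lower). Mtr, at 59.3 and 48.7 CPM with and 34.5 and 32.5 CPM without lactate, had the largest change relative to its error among them (log2 fold change -0.56, SE 0.235, adjusted p = 1 by edgeR). Mthfd1 differed by -0.55 (SE 0.576) and Mthfd2 by -0.26 (SE 0.198).

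Shmt2 was among these, at 49.4 and 41.3 CPM with lactate and at 33.9 and 24.0 CPM without it (log2 fold change -0.53, SE 0.265), the reverse of its order at the late stage. The interaction of stage and lactate, fitted with the G&N and G&N-L libraries of the 2 stages, 8 in all, was 1.14 on the log2 scale for Shmt2 (SE 0.397, adjusted p = 0.65 by edgeR). It was -1.44 for Shmt1 (SE 0.673), -1.15 for Mat2a (SE 0.621), 0.21 for Mat2b (SE 0.225), 0.40 for Mtr (SE 0.400), 0.30 for Mthfd1 (SE 0.953), 0.22 for Mthfd2 (SE 0.291) and -0.58 for Ahcy (SE 2.96). None of the 8 was called, nor any gene of all 22287 (0%), by edgeR. DESeq2 called 0 of the 8, beside 1.07% of all genes, and by edgeR 1 of the 8 had an unadjusted p under 0.05, beside 7.55% of all genes. A difference between the stages in the effect of lactate was thus not shown for any of the 8. Stage and time without lactate differ together in this comparison and cannot be told apart.

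Between the stages, Mat2b fell. It stood at 3841 and 3023 CPM in early G&N and at 1139 and 1240 CPM in late G&N, and at 3478 and 3037 CPM in early G&N-L against 1349 and 1335 CPM in late G&N-L. The log2 fold change was -1.59 in G&N (SE 0.231, adjusted p = 0.0164 by edgeR) and -1.34 in G&N-L (SE 0.121, adjusted p = 0.00778 by edgeR). Scaled by library totals, the changes were -1.21 and -0.97, still past the threshold. In G&N the call was lost without the first late library (adjusted p = 0.106 by edgeR) or the second (0.0961). The summed level of the maternal list was also lower in all late libraries, as given above, and its part in the fall of Mat2b was not tested.

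Mat2a fell with the stage in G&N-L, from 45.5 and 32.3 CPM to 12.1 and 16.2 CPM (log2 fold change -1.51, SE 0.322, adjusted p = 0.0451 by edgeR). This call was close to the threshold and was lost when any of the 4 libraries was left out (adjusted p = 0.0957 to 0.187 by edgeR), with library totals in place of TMM (0.0697), with all 14 libraries in 1 fit (0.0673) and with replicate number as a block (0.0909). In G&N, Mat2a differed by -0.41 (SE 0.498, adjusted p = 0.637 by edgeR) with overlapping libraries. Shmt1 was at 6.93 and 16.0 CPM in early and at 48.0 and 55.5 CPM in late G&N, without overlap, a log2 fold change of 2.06 (SE 0.557) that missed the threshold (adjusted p = 0.0637 by edgeR) but passed it by DESeq2 (0.00136) and in the fit of all 14 libraries (0.00316). In G&N-L, Shmt1 differed by 0.66 (SE 0.376, adjusted p = 0.311 by edgeR). Shmt2 differed by -0.63 in G&N (SE 0.319) and by 0.55 in G&N-L (SE 0.262). Mtr (-0.24 and 0.20), Mthfd1 (-0.21 and 0.14), Mthfd2 (-0.17 and 0.10) and Ahcy (-0.40 and -0.90) did not pass either. Thus 1 of the 8 was called in G&N and 2 of the 8 in G&N-L, beside 13.7% and 11.8% of all genes. DESeq2 called 2 of the 8 in each, beside 30.5% and 27.9%. At an unadjusted p under 0.05 there were 2 of the 8 in each, beside 34.4% and 32.5% of all genes. Their libraries did not overlap for 4 and 5 of the 8, beside 64.6% and 62.5%. With library totals the median log2 fold change of all genes moved from 0.08 to 0.46 in G&N and from 0.15 to 0.51 in G&N-L, and the share of called genes that were higher late from 59.9% to 76.4% and from 50.4% to 72.6%.

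Ahcy could be followed only at its floor. Its counts were 100 and 18 in early G&N, 6 and 15 in early G&N-L, 29 and 44 in late G&N, 0 and 18 in late G&N-L, 11 and 0 in WT, and 0 in all 4 libraries of H3K18R and Lac-CoA. Its transcript is 99.7% identical over 2086 bases to the retrocopy Ahcyl, which had 166 and 37 counts in early G&N and 0 in the Lac-CoA and H3K18R libraries. A stretch of 1299 bases is 99.2% identical to the pseudogene Gm9826, which had no count. Reads may thus have been split between these copies or discarded. Against the late G&N mean (0.902 CPM) Ahcy was at least 13.1-fold lower with Lac-CoA by counting error alone, taking 3 counts in each library as the floor. Spread between libraries is not in this bound, and Ahcy did not pass the threshold (adjusted p = 0.5 by edgeR). It was not tested in H3K18R against WT or in Lac-CoA against G&N-L, where too few libraries passed the filter on low counts. Mat2a too shares stretches with other annotated transcripts: 788 bases with Ggcx (582 counts over all 14 libraries), 292 with Particl (350 counts), 1164, at 95.4% identity, with the pseudogene Gm9523 (104 counts) and 227, at 95.2% identity, with 6030443J06Rik (893 counts). Mthfd1, which had 31 to 487 counts a library, shares 339 bases at 99.7% identity with Gm47525 (up to 306 counts in a library). Shmt2, which had 106 and 229 counts in WT, shares 232 bases at 90.1% identity with Gm15544 (up to 231 counts in a library). The strand setting of the counting is not given in the sources used here, so reads from such stretches cannot be assigned with certainty.

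The order of the 7 conditions differed between the genes. For Mat2a it ran, by mean, WT (159 CPM), H3K18R (95.7), early G&N (57.6), late G&N (44.3), early G&N-L (38.9), Lac-CoA (35.6) and late G&N-L (14.1), and neighbours in this order were apart only between WT and H3K18R and between Lac-CoA and late G&N-L. For Shmt1 it ran WT (86.2 CPM), late G&N (51.8), H3K18R (46.3), Lac-CoA (37.6), late G&N-L (17.1), early G&N (11.5) and early G&N-L (10.4), and the last 3 overlapped in turn. For Mthfd1 every neighbour in the order overlapped, between 1.96 and 8.76 CPM.

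Of 7687 genes with a mean of at least 10 CPM, the 5 whose mean log2 levels over the 7 conditions followed Mat2a most closely by Pearson's r were Bod1l (0.995), Utp6 (0.993), Gmnn (0.992), Riox2 (0.988) and Gm9892 (0.987). The correlations are over the means of only 7 conditions and are given without a test. Gmnn, the replication licensing inhibitor geminin, had mean levels of 1499 CPM in WT and 1238 CPM in H3K18R. It had 779 CPM in late G&N, 499 CPM in late G&N-L and 729.9 CPM with Lac-CoA. Riox2, a histone demethylase and ribosomal oxygenase, had 121, 66.5, 23.8, 6.93 and 22.5 CPM in the same order. WT and H3K18R also had the highest means of Mat2a (159 and 95.7 CPM) and the lowest of Shmt2 (5.84 and 9.53 CPM). The part of this gap in the correlations was not tested. Among the other members r with Mat2a was 0.60 for Shmt1, -0.13 for Mtr, -0.36 for Mat2b, -0.72 for Mthfd2 and -0.86 for Shmt2.

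The surrounding pathways were followed with 7 lists of 64 further genes. In late G&N-L against G&N, 0 of the 58 tested passed the adjusted threshold (0% of all genes), and 11 had an unadjusted p under 0.05, 10 of them lower (12.0% of all genes, 7.65% lower). DESeq2 called 6 of the 58, beside 4.79% of all genes. The median log2 fold change was -0.48 over the lists and -0.02 over all genes. It was -0.72 for purine synthesis, which uses formyl groups carried by folate, and -0.58 for serine and glycine metabolism. For SAM and methionine it was -0.40, for methionine salvage and polyamines -0.22 and for folate interconversion -0.11. Transsulfuration (0.03, 1 gene tested) and folate uptake and retention (0.10) were above 0. With Lac-CoA against G&N-L 0 of 59 passed, and 13 had an unadjusted p under 0.05 (13.3% of all genes) with 10 of them higher. The median was 0.28 beside -0.01 over all genes. It was 1.07 for purine synthesis, -0.01 for serine and glycine metabolism and -0.04 to 0.32 for the other lists. In H3K18R against WT 0 of 58 passed and 5 had an unadjusted p under 0.05 (6.44% of all genes), with a median of -0.38 beside 0.03. In early G&N-L against G&N 0 of 49 passed, 1 had an unadjusted p under 0.05 (4.52% of all genes), and the median was -0.14 beside -0.01.

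Between the stages, 19 of 59 listed genes passed in G&N, 13 higher and 6 lower at the late stage, and 13 of 56 in G&N-L, 9 higher and 4 lower. These counts stand beside 8.18% of all genes higher and 5.47% lower in G&N, and 5.97% and 5.87% in G&N-L. Without the first or the second late library 3 and 4 listed genes passed in G&N (220 and 283 of all genes) and 3 and 6 in G&N-L (335 and 678), and without either early library 7 passed in G&N-L. Of the 8 purine synthesis genes, 4 rose and 1 fell in G&N and 4 rose in G&N-L. Ppat, the first enzyme of that pathway, rose from 1.28 ± 0.179 to 262 ± 67.1 CPM in G&N (SD, n = 2) and from 1.36 ± 0.642 to 74.0 ± 3.52 CPM in G&N-L. Impdh2, which opens the branch to guanine nucleotides, rose from 1.93 ± 0.186 to 64.3 ± 11.2 CPM in G&N. Pfas had 6 counts in the early and 948 in the late G&N libraries.

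In serine and glycine metabolism 2 of 9 genes rose in G&N, and 2 rose and 1 fell in G&N-L. Gcsh, the carrier protein of the glycine cleavage system, rose from 4.64 ± 0.156 to 581 ± 135 CPM in G&N and from 3.72 ± 3.97 to 280.1 ± 115 CPM in G&N-L (SD, n = 2). Gldc, the decarboxylase of the same system, rose from 0.238 ± 0.114 to 29.8 ± 3.07 CPM in G&N. Psat1, an enzyme of serine synthesis, had no count in early G&N-L and 2186 counts in late G&N-L, at least 269-fold higher against a floor of 3 counts in each library. Dld, the dehydrogenase that glycine cleavage shares with pyruvate oxidation, fell from 129 ± 18.4 to 45.9 ± 16.6 CPM in G&N-L.

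In the list of SAM and methionine genes, 1 rose and 2 fell of 14 in G&N, and 2 of 13 fell in G&N-L. Mmadhc, which handles the cobalamin that Mtr needs, fell from 394 ± 197 to 71.0 ± 3.88 CPM in G&N and from 289.8 ± 33.5 to 116 ± 17.2 CPM in G&N-L (SD, n = 2). Slc25a26, the mitochondrial importer of SAM, fell from 41.3 ± 5.53 to 7.89 ± 2.16 CPM in G&N and from 34.7 ± 9.43 to 4.80 ± 2.70 CPM in G&N-L. Bhmt2, a methyltransferase that makes methionine from homocysteine, had no count in early G&N and 697 counts in late G&N, at least 134-fold higher. Of 12 genes of methionine salvage and polyamines, 4 rose and 1 fell in G&N and 2 rose in G&N-L. Odc1, which makes putrescine, rose from 19.6 ± 4.19 to 117 ± 17.0 CPM in G&N and from 22.7 ± 1.93 to 70.6 ± 5.32 CPM in G&N-L. Oaz1, of the same list, also rose in both. Its log2 fold change was 1.08 in G&N (SE 0.239) and 1.78 in G&N-L (SE 0.146), where it had the smallest p of the list. In G&N the log2 fold change was 2.36 for Adi1 (SE 0.420) and -1.62 for Mtap (SE 0.292), the gene that fell. Putrescine was not measured.

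Among folate genes, 1 of 9 tested for interconversion fell in G&N (Mtfmt, which formylates the mitochondrial initiator tRNA, from 28.1 ± 8.98 to 2.68 ± 1.67 CPM), and in G&N-L 1 of 8 fell (Mthfs, from 60.1 ± 9.62 to 26.4 ± 5.72 CPM). Folr1, a folate receptor, rose in both: it had 12 counts in early and 5682 in late G&N, and 2 counts in early and 1589 in late G&N-L. Fpgs, which retains folate in the cell by adding glutamates, fell from 33.4 ± 17.6 to 6.96 ± 0.686 CPM in G&N (SD, n = 2). Neither Cbs nor Cth, the enzymes of transsulfuration, passed the threshold. No listed gene passed for the interaction of stage and lactate, where 8 of 61 had an unadjusted p under 0.05 beside 7.55% of all genes, so that a difference between the stage changes with and without lactate was not shown for Gcsh, Ppat or the others.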

How the data were processed

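The deposited table holds raw read counts per gene, which the authors made from mouse embryo RNA-seq with FastQC, Trim Galore, HISAT2 on mm39 and featureCounts (versions, strand setting and annotation release are not given in the sources used here). All 14 libraries were used. The study's methods state more replicates than the 2 per condition in the table. Replicates differed by more than counting noise (chi-square per degree of freedom 47.8 to 195).

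Every comparison used a separate fit of its 4 libraries (8 for the interaction) in R 4.3.3 with edgeR 4.0.16: default filter on low counts, TMM, two-sided quasi-likelihood test, Benjamini-Hochberg adjustment over all genes tested, threshold 0.05. SE is the log2 fold change divided by the root of F. Fitted changes use a prior count of 0.125, and log2 levels for the correlation with Mat2a a prior count of 2. The fit was also run on counts simulated under edgeR's own model of spread, in which only well-counted genes were changed. Such a run does not cover genes with few counts or the spread of single genes in these data. Alternatives were DESeq2 1.42.0, other scalings and filters, a fit of all libraries, a replicate block and leaving out each library. Sequences, coordinates and transcript lengths come from the GENCODE annotation of GRCm39. Shared stretches needed at least 90% identity over 200 bases.

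The 8 genes and the lists were chosen with earlier results of these data known. By rule, all 8 genes were named in every comparison, among the genes of each list past the threshold up to 3 by smallest p, the 5 genes most like Mat2a, and the check genes Ldha, Ldhb and H3c1. The search of 3′ UTRs was added after the counts were seen. The values of 1 gene of the folate interconversion list are not reported here, though it is counted in the list totals.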

Additional observations from a re-analysis of the deposited data

Results flagged for a closer look

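Shmt2 was flagged because its G&N-L libraries lay on opposite sides of G&N at the early and the late 2-cell stage, with no overlap in either. Both early G&N-L libraries were below both early G&N libraries (33.9 and 24.0 against 49.4 and 41.3 CPM), and both late G&N-L libraries were above both late G&N libraries (43.4 and 45.0 against 27.5 and 33.9 CPM). The test of the difference, the interaction of stage and lactate, gave 1.14 on the log2 scale (SE 0.397), which did not pass adjustment over all genes (adjusted p = 0.65 by edgeR and 0.28 by DESeq2). Leaving out each library in turn, the interaction was 0.99 to 1.32.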

How the results depend on the processing

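Of 699 log2 fold changes of the 8 genes recomputed under alternatives, 644 kept their direction and their side of the threshold, 9 lost it, 9 gained it and 37 changed sign, 30 of these without a library. The number of the 8 genes called in late G&N-L against G&N went from 0 to 2 by DESeq2 and 1 without a filter, in late against early G&N from 1 to 2 with library totals, DESeq2, no filter, at least 10 counts in every library or all 14 libraries, and in late against early G&N-L from 2 to 1 with library totals, all 14 libraries or the replicate block. Without 1 library it was 0 to 2 in late against early G&N and 1 in late against early G&N-L. Listed pathway genes called went, by DESeq2, from 0 to 6 (late G&N-L against G&N, 4.79% of all genes), 6 (Lac-CoA against G&N-L, 6.20%), 1 (Lac-CoA against G&N, 2.43%), 1 (H3K18R against WT, 0.678%) and 1 (interaction, 1.07%) and from 13 to 25 (late against early G&N-L, 27.9%). Without a filter they were 4 (late G&N-L against G&N, 1.10%), 1 (H3K18R against WT, 0.288%) and 4 (interaction, 1.11%), and with at least 10 counts 1 (late G&N-L against G&N, 0.810%). Without 1 library they were 3 to 17 in late against early G&N and 3 to 7 in late against early G&N-L. The cause of these shifts was not tested.

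Replicate numbers were shared between groups, but deviations of same-numbered libraries correlated at -0.04 to 0.01, so the numbers were not taken as pairs. With the replicate block 13 pathway genes were called in late against early G&N and 10 in G&N-L. The block moved Shmt1 in early G&N-L against G&N to 0.10.

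Other sign changes were as follows. In all 14 libraries Mat2b was -0.08 in early G&N-L against G&N and -0.07 in Lac-CoA against G&N. In late against early G&N, library totals gave 0.14 for Mtr, 0.20 for Mthfd1 and 0.22 for Mthfd2, and the 10-count filter 0.01 for Mthfd2. Without 1 library, log2 fold changes ranged in late G&N-L against G&N from -0.53 to 0.06 (Mtr), -0.71 to 0.45 (Mthfd1) and -0.17 to 0.11 (Mthfd2). In early G&N-L against G&N they were -0.90 to 0.34 (Mat2a), -0.02 to 0.13 (Mat2b), -2.85 to 0.08 (Ahcy) and -0.60 to 0.81 (Shmt1). With Lac-CoA they were -0.26 to 0.35 (Mtr, against G&N-L), -0.51 to 0.08 (Mat2a, against G&N) and -0.04 to 0.06 (Mat2b, against G&N). In H3K18R against WT they were -0.01 to 0.54 (Mtr), -0.01 to 1.64 (Mthfd1) and -0.10 to 0.49 (Mthfd2). In late against early G&N they were -0.88 to 0.45 (Mat2a), -1.07 to 1.07 (Ahcy), -0.93 to 0.24 (Mthfd1) and -0.33 to 0.09 (Mthfd2), and in G&N-L -6.87 to 0.59 (Ahcy), -0.09 to 0.49 (Mtr) and -0.34 to 0.84 (Mthfd1). For the interaction they were -6.78 to 0.99 (Ahcy) and -0.20 to 1.05 (Mthfd1). Where a library was left out, the lone library of a group was assumed to vary like the others. The 5 genes most like Mat2a stayed the same 5 with a prior count of 0.5, and 115 in place of 117 pairs of conditions did not overlap with library totals. With 2 libraries a group and under 1 CPM of Ahcy, moderate differences were not detectable.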

Other observations

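The check genes of the study's treatment had the following values. Ldhb, the lactate dehydrogenase subunit that prevails in oocytes, was at 6094 to 7138 CPM in the early libraries and at 427 to 1458 CPM in the late ones. Ldha was at 0.628 and 0 CPM in early G&N and at 0 in both early G&N-L libraries. It was at 8.13 and 13.2 CPM in late G&N, 4.58 and 3.47 CPM in late G&N-L and 21.8 and 13.6 CPM with Lac-CoA. In WT it was at 17.7 and 16.0 CPM, and in H3K18R at 14.4 and 4.65 CPM.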
